A study of Mus musculus with 8 samples.

Results

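The genes described here encode 42 glycoproteins, proteoglycans and cross-linking enzymes of the extracellular matrix, chosen by name from the deposited table of the embryonic mouse kidney. All 42 were among its 23337 genes. In the table they lie in 5 roles: 10 interstitial glycoproteins and matrilins, 11 components of elastic fibres and microfibrils, 4 lysyl oxidases, 9 proteoglycans (versican and the small leucine-rich family) and 8 proteins of the basement membrane. The rule uses gene names and no measured value, but the names were chosen with earlier results of these data known.

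RNA came from kidneys of E13.5 embryos (mid-gestation, when the kidney is branching) on a mixed C57BL/6 background, with 4 libraries in each of 2 groups. Controls were Smo(flox/+), with 1 floxed and 1 wild type copy of Smo, and were called wild type in part of the labels. Mutants were Foxd1Cre;Smo(flox/-), with a floxed copy, a null copy and a Cre recombinase that acts in the Foxd1-expressing progenitors of the renal stroma and what descends from them. Every cell of a mutant kidney carried the null copy and the Cre allele, and the control labels name no Cre, so a difference belongs to the whole genotype. The Smo product, Smoothened, carries hedgehog signals across the cell membrane. The comparison asks how transcripts of the whole kidney differ in these mutants. Whether the 4 samples of a group are separate embryos is not in the labels, so p-values measure the spread between these samples, which may in part be technical.

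The matrix is the scaffold between cells, and in the embryonic kidney its interstitial part is made largely by stromal fibroblasts. Fibronectin is assembled early into fibrils on which other components are laid down. Fibrillins form microfibrils that take up elastin with the help of fibulins and lysyl oxidases, and small leucine-rich proteoglycans bind collagen fibrils and set their width. Nidogens, perlecan and agrin belong to the basement membrane under epithelia and vessels, and the Fras1 and Frem proteins form a complex there that is needed for the ureteric bud to invade the metanephric mesenchyme.

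Promoter sequences of 27 of the 42 genes were matched by symbol in RefSeq (GRCm38.p6). The 250 bases before the start site are shown, 5′ to 3′ on the gene's strand, for Nid1, Ecm1 and Postn. The groups did not overlap for Nid1 (lower in mutants) and Ecm1 (higher), though neither passed the threshold given below. Postn had a wide spread among controls. These 3 genes were chosen after the values were seen. Capitals mark 3 motifs searched on both strands. GGGCGG is the GC box, bound by Sp factors at many promoters that lack other core elements. The TATA box, which places the start of transcription, was searched as TATAAA and shares no end letters with the GC box, so the pair cannot overlap. The binding site of the Gli factors, the transcription factors of the hedgehog pathway, was searched as GACCACCCA.
Nid1, chr13:13437352-13437601, plus strand: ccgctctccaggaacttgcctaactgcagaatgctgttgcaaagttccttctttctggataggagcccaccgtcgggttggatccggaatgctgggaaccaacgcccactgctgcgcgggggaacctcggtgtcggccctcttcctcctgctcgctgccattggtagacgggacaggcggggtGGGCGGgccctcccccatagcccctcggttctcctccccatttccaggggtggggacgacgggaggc
Ecm1, chr3:95739570-95739819, minus strand: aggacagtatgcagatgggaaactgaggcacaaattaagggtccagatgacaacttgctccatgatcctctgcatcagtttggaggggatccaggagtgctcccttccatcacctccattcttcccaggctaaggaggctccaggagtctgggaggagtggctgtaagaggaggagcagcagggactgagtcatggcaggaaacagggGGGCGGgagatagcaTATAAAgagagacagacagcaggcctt
Postn, chr3:54360857-54361106, plus strand, before the downstream of 2 starts: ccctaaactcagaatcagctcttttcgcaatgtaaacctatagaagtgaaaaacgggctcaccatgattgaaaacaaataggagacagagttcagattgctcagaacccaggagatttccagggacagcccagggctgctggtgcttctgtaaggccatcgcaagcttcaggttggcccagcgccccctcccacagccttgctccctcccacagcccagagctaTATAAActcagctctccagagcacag

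The Gli letters were in none of the 37 windows of these 27 genes, and in 0.225% of all 32851 windows. Letters so rare cannot show a difference in 37 windows. Fn1 was not among the 27 genes, so its promoter was not searched. TATAAA was in 18.9% of the members' windows, beside 12.4% of all, and began 27 bases before the start in Ecm1 and 26 in Postn. The window before the other Postn start held no such letters, and the matches in Aspn and Ogn lay further from the start. GGGCGG was in 45.9%, beside 32.7% of all, Nid1 and Ecm1 included. These matches describe letters in a short window, and their relation to the levels was not tested.

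Values are read counts per gene divided by a size factor for each library, called normalised counts, and errors are the SD over the 4 libraries of a group (mean ± SD, n = 4). Libraries held 10288191 to 13494079 reads in genes. Testing was limited to the 13692 genes whose mean over the libraries reached 10, and 41 of these were members. A log2 fold change is the mutant minus the control mean of log2(normalised count + 1), a scale that understates changes of low genes. A gene was called when its adjusted p from limma (Benjamini-Hochberg over all tested genes) was under 0.05. Smo lay between 2152 and 2294 in controls and between 509 and 553 in mutants (log2 fold change -2.06, SE 0.041, adjusted p = 1.87e-10). Among 11 markers of kidney compartments, the summed level lay between 12977 and 13897 in controls and between 12942 and 13742 in mutants. Of these markers 2 were called. Foxd1, the transcription factor of stromal progenitors that drives the Cre, fell by 1.29 on the log2 scale, with means of 1477 ± 473 in controls and 593 ± 137 in mutants (adjusted p = 0.0251). Pax2, a transcription factor of the nephron and collecting duct lineages, rose from 1461 ± 82.5 to 1819 ± 121 (0.32, adjusted p = 0.0332).

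Markers of tissues around the kidney differed in level between libraries. The summed level of 10 skeletal muscle markers reached 3628 in control 2 and 2026 in mutant 2. Control 1 followed at 642, and the remaining 5 libraries lay within 137 and 320.05. For 7 liver markers the sum was 737 in control 1 and between 15.0 and 146 in the others. Among 7 markers of tendon and dense connective tissue it was highest in control 2, at 2314, and lowest in mutant 1, at 1114. None of these markers was at 0 in every library, and none was called. Several results below rest on controls 1 and 2 and on control 4, and are given with and without them.

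Fibronectin fell in the mutants, and none of the other 40 tested members was called. The share of called members was 2.44%, beside 0.57% of all tested genes (0.446% lower and 0.124% higher). The members' median log2 fold change was -0.03, with 24 below and 17 above 0, beside a median of 0.0037 over all tested genes. The size factors hold the median over all genes near 0. An unadjusted p under 0.05 was reached by 11 members (26.8%), beside 8.7% of all tested genes, with 7 lower and 4 higher. The lower ones were Fn1, Postn, Tgfbi, Fbn1, Fbln2, Loxl2 and Nid1, and the higher ones Ecm1, Fbln1, Fbln5 and Frem2. Control and mutant libraries did not overlap for 4 members (9.76%), Fn1, Nid1, Fbln2 and Ecm1, beside 5.31% of all tested genes. In whole-organ RNA a smaller number of cells of a type and less RNA per cell cannot be told apart.

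**Figure D1:**
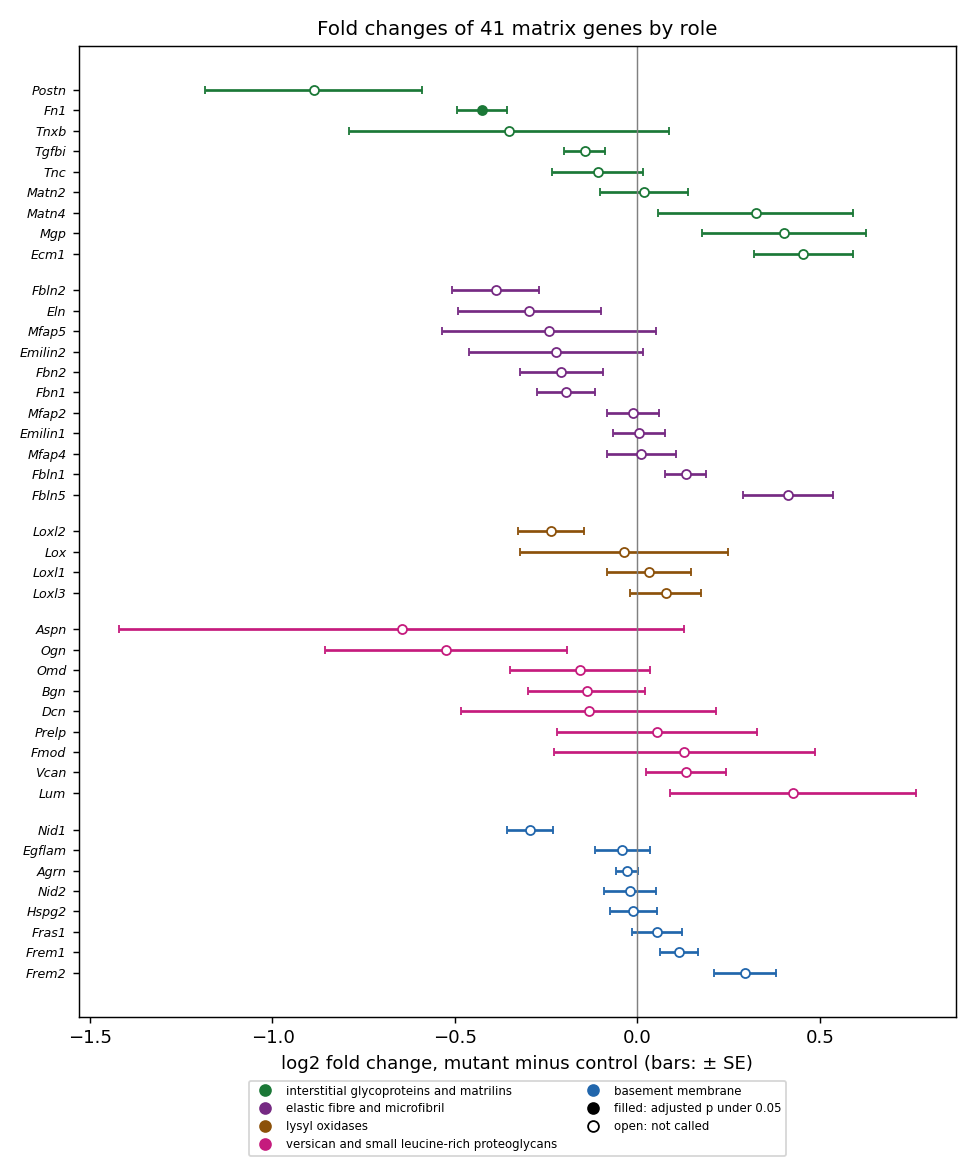
Log2 fold change of each of the 41 tested matrix genes (x axis, mutant minus control, bars ± SE), in blocks by role, with a filled point for an adjusted p under 0.05. Fn1 carries the only filled point, and the bars are longest among the small leucine-rich proteoglycans, where Aspn has an SE of 0.77.

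Fn1 encodes fibronectin, the glycoprotein that links integrins to the matrix, and lies on chromosome 1 from 71585473 to 71653280 of GRCm38. Its level was 8071, 8513, 8831 and 8681 in controls 1 to 4 and 5468, 6562, 6277 and 7195 in mutants 1 to 4. The lowest control stood above the highest mutant. The stromal marker Foxd1 fell in the same mutants, and its part in the level of Fn1 was not tested. Only the mutant labels name the Foxd1Cre allele, and the part of that allele in the fall of Foxd1 was not tested either. The mean fell from 8524 ± 328 to 6375 ± 716, which is 74.8% of the control level (log2 fold change -0.43, SE 0.068, adjusted p = 0.0218 by limma). The mutants differed among themselves more than the controls did, with SDs on the log2 scale of 0.16 and 0.056. The fold change lay between -0.49 and -0.35 with each library left out in turn. The call was lost without control 2 (adjusted p = 0.0669), control 3 (0.0966), mutant 2 (0.0659) or mutant 3 (0.0929), with the direction the same in each. Over all alternatives its adjusted p ran from 4.04e-07 to 0.166. Exons of an antisense gene cover 2.5% of the exon length of Fn1, and reads there cannot be told apart if strand was not used in counting.

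The other interstitial glycoproteins spread over both directions. Postn encodes periostin, a matricellular protein of fibroblasts and periosteum. Its level was 4672, 5128, 2859 and 1611 in controls 1 to 4, against 1561, 2246, 1488 and 1809 in mutants 1 to 4. Controls 1 and 2 stood far above all other libraries, and control 4 lay within the range of the mutants. The means were 3568 ± 1631 and 1776 ± 342 (log2 fold change -0.89, SE 0.298, adjusted p = 0.332). Without control 4 the log2 fold change of Postn was -1.22 and it was called (adjusted p = 0.0112), and without controls 1 and 2 it was -0.29 (adjusted p = 0.728). Its adjusted p ran from 0.00795 to 0.728 over all alternatives.

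Tgfbi encodes an integrin-binding protein induced by transforming growth factor beta. Control levels of Tgfbi lay within 2928 and 3028, a narrow band, while the mutants stood at 2392, 2825, 2651 and 2949. Mutant 4 lay inside the control band, so the groups overlapped (log2 fold change -0.14, SE 0.055, adjusted p = 0.434).

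Ecm1, a secreted glycoprotein that binds perlecan and fibulins, went the other way. It was at 638, 586, 449 and 383 in controls and at 689, 652, 765 and 661 in mutants, without overlap. The means were 514 ± 118 and 692 ± 51.5 (log2 fold change 0.45, SE 0.136, adjusted p = 0.245). Controls 1 and 2 were the controls nearest to the mutants, and without them Ecm1 was called (log2 fold change 0.74, adjusted p = 0.0130). Over the alternatives adjusted p of Ecm1 ran from 0.013 to 0.588.

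Of the remaining members of this role none had an unadjusted p under 0.05. Mgp, the matrix Gla protein that inhibits calcification, stood at 255 ± 84.5 and 320.4 ± 28.3, and its low control was control 4 at 133. Tnc, the hexameric glycoprotein tenascin C, was at 714 ± 39.9 and 674 ± 152, and Matn2, a filament-forming matrilin, at 605 ± 115 and 606 ± 56.7. Tenascin X (Tnxb, 25.9 ± 14.8 and 18.3 ± 7.4) and matrilin 4 (Matn4, 16.6 ± 5.4 and 20.4 ± 3.1) were close to the limit of testing. Vtn, which encodes the plasma protein vitronectin, was below it, at 2.97 ± 1.85 and 3.89 ± 1.13.

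**Figure D2:**
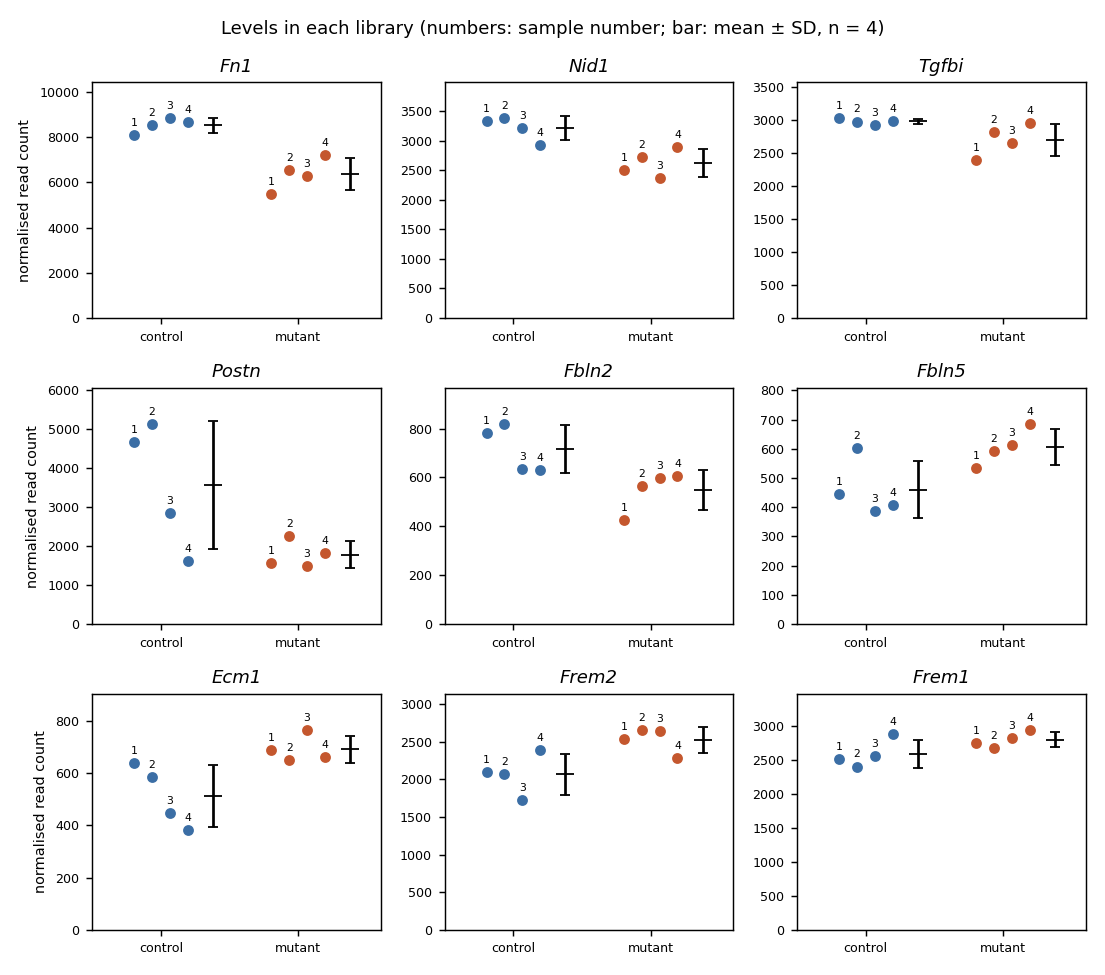
Normalised read count (y axis, from 0) of 9 matrix genes in the 4 control and 4 mutant libraries, each point marked with its sample number, with mean ± SD at the side. The groups do not overlap for Fn1, Nid1, Fbln2 and Ecm1, and the controls of Postn reach from 1611 to 5128.

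Among genes of elastic fibres and microfibrils none of 11 was called, with log2 fold changes below 0 for 7 and above 0 for 4. Fbln2 and Fbln5 encode fibulins, which bridge elastin, fibrillin and basement membrane. Fbln2 was at 783, 818, 634 and 629.9 in controls and at 426, 564, 596 and 606 in mutants. Every mutant lay below every control, with mutant 4 close to control 4 (716 ± 98.3 and 548 ± 83.3, log2 fold change -0.39, SE 0.119, adjusted p = 0.260). Without controls 1 and 2 its log2 fold change was -0.22. For Fbln5, required for elastic fibre assembly, controls stood at 444, 602, 388 and 408 and mutants at 535, 591, 614 and 684. Control 2 was the single control inside the range of the mutants (460.3 ± 97.1 and 606 ± 61.8, log2 fold change 0.41, SE 0.124, adjusted p = 0.247). Without control 2 the log2 fold change of Fbln5 was 0.55 and it was called (adjusted p = 0.0342), and it was also called without controls 1 and 2 (0.60, adjusted p = 0.0335). Its range of adjusted p over the alternatives was 0.0335 to 0.553.

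Fbln1 and Fbn1 differed by less. Fbln1, which binds fibronectin and nidogen, was at 1628, 1491, 1437 and 1355 in controls and 1543, 1673, 1564 and 1689 in mutants (log2 fold change 0.13, SE 0.056, adjusted p = 0.513). For Fbn1, which encodes a fibrillin of microfibrils, controls were at 1759.9, 1788, 1679 and 1709 and mutants at 1264, 1585, 1489.8 and 1755. Mutant 4 again lay inside the controls, and mutant 1 was the lowest of the 8 (log2 fold change -0.20, SE 0.079, adjusted p = 0.483). Exons of a gene on the opposite strand cover 20.1% of the exon length of Fbn1. Fbn2, the fibrillin of embryonic tissue, was at 5531, 6132, 7067 and 8268 in controls and 5158, 5466, 5793 and 6808 in mutants. The groups overlapped, with mutant 4 above controls 1 and 2 (log2 fold change -0.21, SE 0.114, adjusted p = 0.697). Fbn2 was called only with the sample number as a block (adjusted p = 0.0197 by limma), though the numbers were not taken to pair the samples.

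The other 6 had log2 fold changes from -0.30 for Eln, which encodes elastin (420.03 ± 134 and 332 ± 58.4), to 0.01 for Mfap4, a microfibril-associated protein (991 ± 92.1 and 1004 ± 148). Emilin1, an elastin-associated glycoprotein, was at 2692 ± 247 and 2699.98 ± 244, with a 95% interval of the log2 fold change from -0.15 to 0.16. Mfap2, a small microfibril glycoprotein, was at 1379 ± 107 and 1369 ± 125, with an interval from -0.17 to 0.15. Emilin2 and Mfap5 were lower-level members, at 82.6 ± 30.5 and 68.0 ± 12.4 and at 71.9 ± 30.3 and 57.4 ± 13.1.

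The lysyl oxidases, copper enzymes that cross-link collagen and elastin, held no called member among 4. Loxl2 was at 1602, 1894, 1529 and 1678 in controls and 1229, 1533, 1314 and 1630.3 in mutants (log2 fold change -0.24, SE 0.0895, adjusted p = 0.426). Its groups overlapped through mutants 2 and 4. Loxl3 stood at 192, 188, 204 and 212 in controls and at 201, 234, 178 and 232 in mutants (log2 fold change 0.08, adjusted p = 0.897), and exons of Htra2 on the opposite strand cover 11.6% of its exon length. Lox, the founding enzyme of the family, ranged from 252 in control 4 to 738 in control 2, with all 4 mutants between 362 and 521. Loxl1, which acts on elastin, was at 414 ± 73.4 and 419 ± 35.9.

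Small leucine-rich proteoglycans had the widest spread between libraries of any role, and no member of the role reached an unadjusted p under 0.05. Their median SD within groups on the log2 scale was 0.63, beside 0.22 for all 41 tested members and 0.11 for all tested genes. Ogn, which encodes osteoglycin, stood at 455, 590.3, 300.3 and 149 in controls and at 195, 286, 211 and 239.5 in mutants. The controls enclosed all mutants (log2 fold change -0.52, SE 0.331, adjusted p = 0.760). Lum, which encodes lumican, stood at 641, 609.9, 328 and 172 in controls and at 622, 446, 488 and 535 in mutants. Here too the controls enclosed the mutants, with control 4 the lowest library (log2 fold change 0.43, SE 0.336, adjusted p = 0.814).

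Dcn and Aspn, named after their values were seen, were both high in controls 1 and 2 and low in control 4. Dcn encodes decorin, which binds collagen fibrils, and was at 1415, 1320.1, 604 and 384 in controls and 847, 834, 558 and 759 in mutants. Aspn encodes asporin, a close relative of decorin, and was at 163, 348, 45.5 and 16.9 in controls and 42.02, 127, 29.1 and 47.3 in mutants. For Aspn the highest control was 20.6 times the lowest, and the highest mutant 4.35 times the lowest. Controls 1 and 2 were the highest 2 of the 8 libraries for both genes and control 4 was the lowest.

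Omd, which encodes osteomodulin, did not follow its neighbours. Aspn, Omd and Ogn lie next to each other on chromosome 13 between 49544443 and 49624501, in that order. Omd was at 31.5, 32.0, 45.5 and 51.7 in controls 1 to 4, so that control 4 was its highest library where it was the lowest for Aspn and Ogn. Its mutants lay between 33.0 and 38.1. At so few reads counting error may make up much of these differences, and the order was not tested. Dcn and Lum are also neighbours, on chromosome 10 between 97479500 and 97572703, and both were lowest in control 4.

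Versican (Vcan), the large hyaluronan-binding proteoglycan, was the member with the most reads. Its level was 8234, 9479, 11090.0 and 12172 in controls and 9665, 10872, 12317 and 11755 in mutants (log2 fold change 0.13, SE 0.109, adjusted p = 0.821). Like Omd, it was highest in control 4 among the controls. Biglycan (Bgn, 869.6 ± 226 and 774 ± 95.7), fibromodulin (Fmod, 34.6 ± 16.2 and 36.7 ± 13.3) and Prelp (20.3 ± 6.5 and 21.1 ± 5.6) completed the role.

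**Figure D3:**
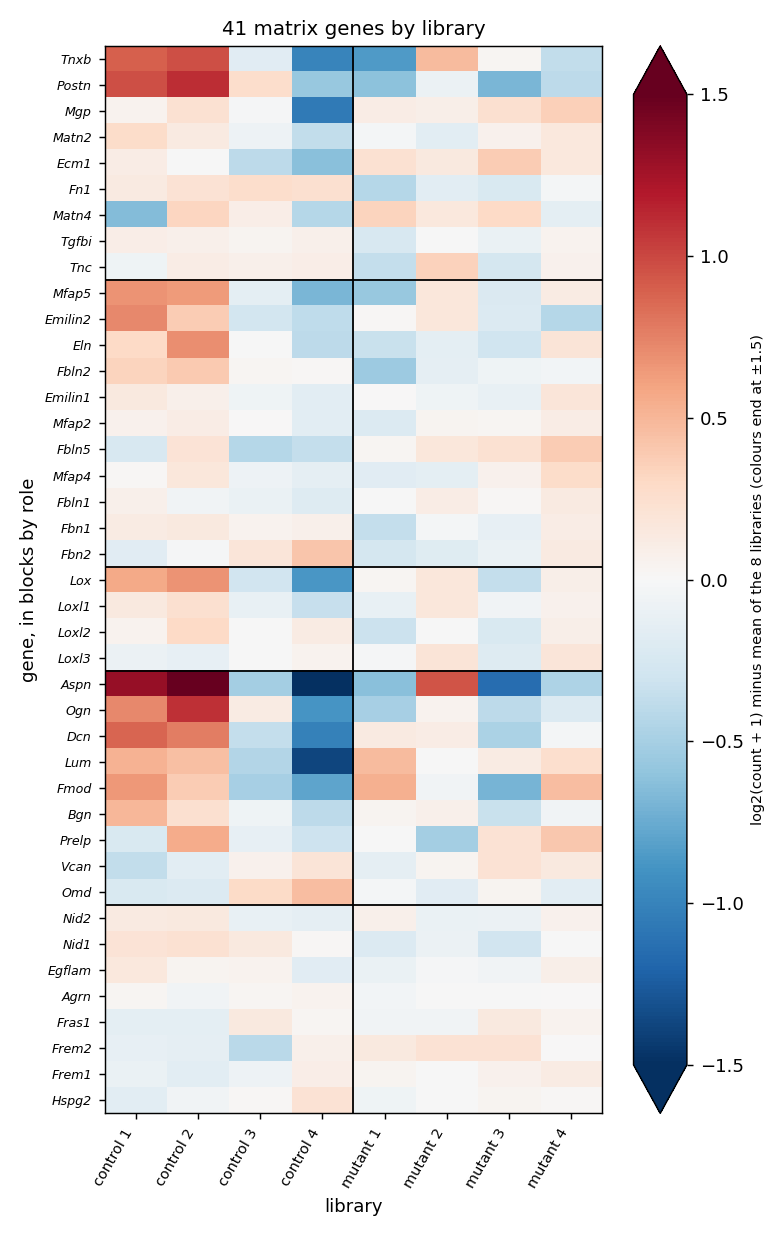
Deviation of log2(count + 1) from the mean of the 8 libraries (colour, ending at ±1.5) for 41 matrix genes in rows, in blocks by role, and 8 libraries in columns. Controls 1 and 2 are the high columns and control 4 the low one for Aspn, Ogn and Dcn, while Omd and Vcan have the opposite colours and the basement membrane block is pale.

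Basement membrane genes varied least. Their median SD within groups was 0.12 on the log2 scale, and none of 8 was called. Nid1 encodes nidogen 1, which joins laminin to type IV collagen, and lies on chromosome 13 from 13437602 to 13512275. It was at 3326, 3380.3, 3209 and 2923 in controls and at 2508, 2723, 2367 and 2889 in mutants, a separation without overlap in which control 4 and mutant 4 nearly met. The means were 3209 ± 204 and 2622 ± 231, so the mutants stood at 81.7% of the control level (log2 fold change -0.29, SE 0.063, adjusted p = 0.0812). Nid1 passed in 6 of 21 alternatives. It passed without control 4 (adjusted p = 0.0212) or mutant 4 (0.0312), with the muscle score as a covariate (0.0405) and by DESeq2 (0.00183). The remaining ones were the fit without control 4 and mutant 2 and that with the sample number as a block. It did not pass in the other 6 fits with a library left out, where adjusted p reached 0.238, nor without controls 1 and 2 (-0.23, adjusted p = 0.332). Over all alternatives its adjusted p ran from 0.00183 to 0.348. Its paralogue Nid2 stood at 1474 ± 154 and 1451 ± 93.8, with a 95% interval of the log2 fold change from -0.18 to 0.14. In the authors' deposited table the members listed at an adjusted p under 0.05 were Fn1 (3.56e-05) and Nid1 (0.0305). Of all 19066 genes with a p-value there, 117 (0.614%) were listed.

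Of the Fraser complex, Frem2 was at 2096, 2067, 1724 and 2391 in controls and at 2531, 2654, 2640.2 and 2280.1 in mutants. Control 4 lay above mutant 4, and otherwise every mutant exceeded every control (log2 fold change 0.29, SE 0.084, adjusted p = 0.213). It was called without control 4 (0.37, adjusted p = 0.0335) and by DESeq2 (0.29, adjusted p = 0.0465), while adjusted p over the alternatives ran from 0.0335 to 0.717. Its partners Frem1 (2596 ± 206 and 2804 ± 111, log2 fold change 0.11, adjusted p = 0.589) and Fras1 (2024 ± 205 and 2097 ± 140.3, 0.05, adjusted p = 0.900) were not called.

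The heparan sulphate proteoglycans of the basement membrane were close to equal in both groups. Agrn, which encodes agrin, was at 3466 ± 102 and 3397 ± 47.4, and its 95% interval of the log2 fold change reached from -0.10 to 0.04. Only 2.86% of all tested genes had a smaller SD within groups. Hspg2, which encodes perlecan, was at 3475 ± 384 and 3436 ± 115, with an interval from -0.15 to 0.13. Egflam, which encodes the dystroglycan ligand pikachurin, was at 369 ± 35.3 and 357 ± 20.3.

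Levels of different genes can be compared per kilobase of exon. On the scale of normalised count per kilobase of annotated exon (union over all GENCODE transcripts), the 5 highest members over the 8 libraries were Mfap2, Tgfbi, Vcan, Fn1 and Emilin1. In controls Mfap2 stood at 1139 ± 88.0 per kilobase, Tgfbi at 790.4 ± 10.9, Fn1 at 729 ± 28.1, Vcan at 708 ± 120.1 and Emilin1 at 545 ± 50.1. Mfap2 lay above the others beyond the spread of the libraries, while Vcan did not differ from Tgfbi or Fn1 beyond its own. In mutants Vcan was at 771 ± 80.0 and Fn1 at 546 ± 61.3 per kilobase. The lowest tested members were Tnxb at 2.12 ± 1.21, Matn4 at 3.21 ± 1.05 and Prelp at 5.63 ± 1.80 per kilobase in controls. Lengths that include rare long transcripts lower this value for some genes.

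The order of libraries seen in the proteoglycans recurred across roles, a pattern chosen after the values were seen. Controls 1 and 2 were the highest 2 of the 8 libraries for 14 of 41 members (34.1%), beside 7.79% of all tested genes. Those members were Tnxb, Postn, Eln, Fbn1, Fbln2, Emilin2, Mfap5, Lox, Dcn, Bgn, Ogn, Aspn, Nid1 and Nid2. Control 4 was the lowest library for 18 members (43.9%), beside 17.0% of all tested genes. Both held for 9 members (22.0%), Tnxb, Eln, Mfap5, Lox, Dcn, Bgn, Ogn, Aspn and Nid2, beside 2.61% of all tested genes. The reverse, with controls 1 and 2 the lowest 2, was seen in Vcan, Omd, Fras1 and Frem1 (9.76%, beside 8.37%). The members' values are not independent of each other, since they come from the same 8 libraries.

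The median deviation of the 41 members from their mean over the 8 libraries was 0.12 in control 1, 0.20 in control 2, -0.01 in control 3 and -0.18 in control 4. In mutants 1 to 4 it was -0.05, -0.0049, -0.06 and 0.08. Over all tested genes it stayed within 0.00023 and 0.0036, since the size factors bring the typical gene to a like level in each library. The SD on the log2 scale was larger among controls than among mutants for 31 of 41 members (75.6%), beside 56.8% of all tested genes, and for all 9 of versican and the small leucine-rich proteoglycans.

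Some marker lists moved with part of this order, and others did not. Controls 1 and 2 had the highest summed skeletal muscle level of the controls, and control 4 the lowest at 142. Dpt, a fibroblast gene of dense connective tissue in the tendon list, was at 99.2 in control 2 and 23.0 in control 1 and between 3.76 and 7.64 elsewhere. Mesothelial markers summed to 112 in control 1 and 37.6 in control 4. In the mutants muscle and the median of all members did not rank alike. Mutant 2 had the most muscle RNA, and mutant 4 the highest such median. Single roles differed in this. Versican and the small leucine-rich proteoglycans had their highest median in mutant 2 (0.036) and lowest in mutant 3 (-0.34), as muscle did. So did the lysyl oxidases (0.17 and -0.21). The interstitial role was highest in mutant 2 (0.091) but lowest in mutant 1 (-0.24). Elastic fibre and basement membrane genes were highest in mutant 4 (0.13 and 0.036) and lowest in mutant 1. Cartilage and red cell markers were highest in control 4 among the controls. Of 8 cartilage markers 6 were present and 3 reached the limit of testing. The sums of these 6 were 909, 957, 994 and 1217.5 in controls 1 to 4, and overlapped between the groups. Red cell markers summed to 8825, 5723, 9174 and 11661 in controls 1 to 4. The part of these tissues in the levels of the matrix genes was not tested. The Y-linked gene Ddx3y was at 1518 in control 4 and at 1390 in mutant 2, and at most 1.7 in each of the other 6 libraries. Control 4 was thus the only control with more than a trace of male RNA, and mutant 2 the only such mutant. The fit without control 4 and mutant 2 leaves both out. Sex cannot be told apart from the other differences between control 4 and the remaining controls. Foxd1 was highest in control 4 (2039, beside 1038, 1138 and 1693 in controls 1 to 3).

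**Figure D4:**
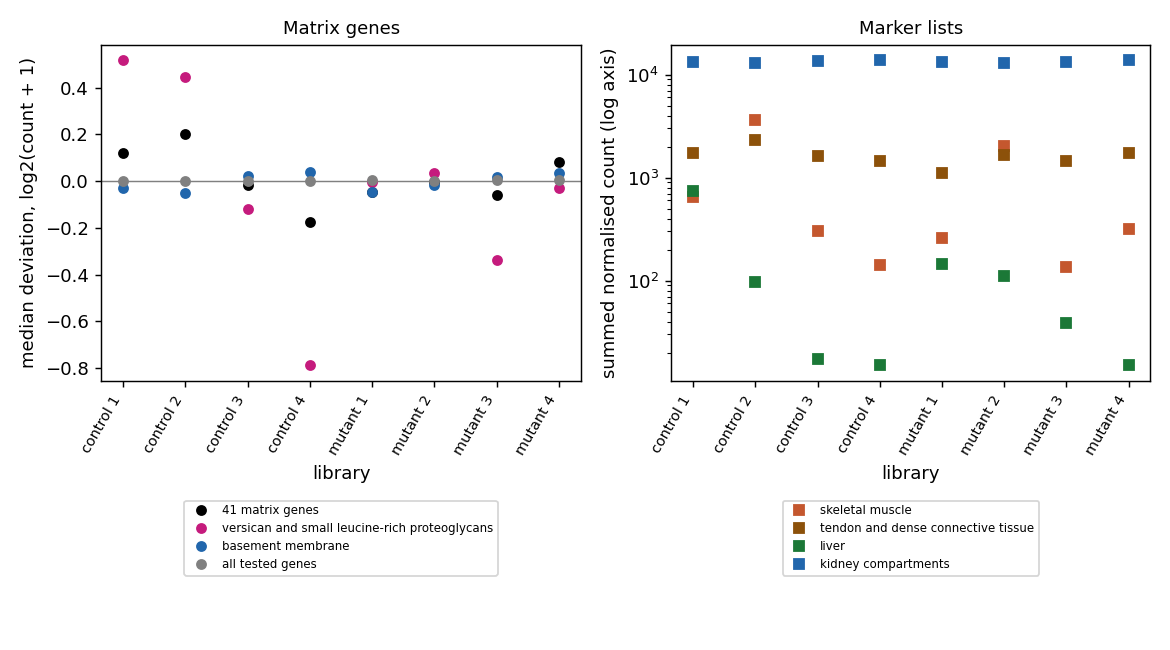
Left, median deviation of log2(count + 1) in each library for 41 matrix genes, for 2 of their roles and for all tested genes. Right, summed normalised count of 4 marker lists in each library on a log axis, where skeletal muscle reaches 3628 in control 2 and 2026 in mutant 2 and the kidney list stays between 12942 and 13897.

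Leaving libraries out turned the balance of the members. Controls 1 and 2 were high and control 4 low for many members, so the direction of the turn follows from the choice of library. Without controls 1 and 2, 27 of 41 had log2 fold changes above 0 and the median was 0.11. Without control 4, 12 of 41 were above 0 and the median was -0.09. Log2 fold changes of Dcn were -0.13 with all libraries, 0.62 without controls 1 and 2 and -0.49 without control 4. Those of Aspn were -0.65, 0.88 and -1.38, and those of Lox -0.04, 0.56 and -0.33. Lum, at 0.43, was 1.12 and 0.04. In contrast, Fn1 stayed at -0.43, -0.46 and -0.42, Tgfbi at -0.14, -0.13 and -0.14, Loxl2 at -0.24, -0.18 and -0.23 and Frem2 at 0.29, 0.31 and 0.37.

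**Figure D5:**
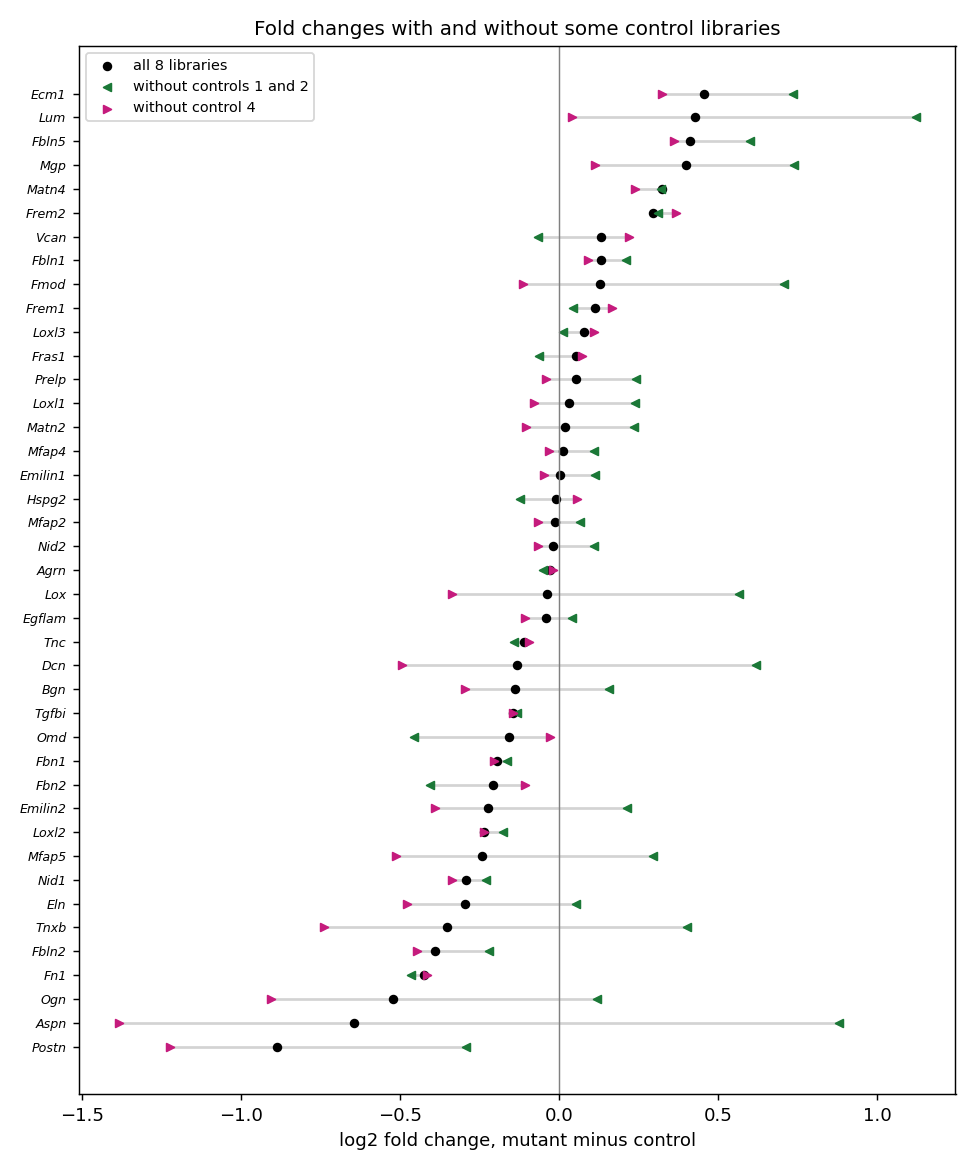
Log2 fold change (x axis, mutant minus control) of 41 matrix genes with all 8 libraries, without controls 1 and 2, and without control 4, joined by a line per gene. The lines are long for Aspn, Dcn, Lum and Ogn and short for Fn1, Tgfbi and Loxl2.

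Other genes of the matrix, from a list of 57 chosen by function with earlier results known, held no gene called by limma. In the table were 56, 42 were tested and 0 were called, while 8 had an unadjusted p under 0.05 (19.0%, beside 8.7% of all tested genes, with 4 lower and 4 higher), and DESeq2 called 1 and edgeR 0. Their log2 fold changes were below 0 for 36 of 42 (85.7%), with a median of -0.15, beside 48.1% of all tested genes. Loxl4, a further lysyl oxidase, had the smallest p, at 185, 148, 186 and 158 in controls and 70.7, 133, 94.1 and 93.4 in mutants (log2 fold change -0.81, SE 0.168, adjusted p = 0.0656). Its groups did not overlap, and it was called without mutant 2 (-0.97, adjusted p = 0.0285) and by DESeq2 (adjusted p = 0.00209). For Loxl4 adjusted p ran from 0.00209 to 0.221 over the alternatives. Has2, which makes the hyaluronan that versican binds, was at 1219 ± 136 and 1486 ± 161 (log2 fold change 0.29, adjusted p = 0.252). Lama5, a laminin chain of the basement membrane, was at 937 ± 64.0 and 1079 ± 66.2 (0.20, adjusted p = 0.207). Crispld2, a secreted glycoprotein, was at 169 ± 31.3 and 208 ± 8.83 (0.32, adjusted p = 0.417).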

How the data were processed

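The members and gene lists were chosen with earlier results of these data known. Polyadenylated RNA of 8 kidney samples was sequenced from Illumina TruSeq libraries, per the labels' protocols. Reads were processed with tools that include DESeq2 1.4.5, TopHat2 2.0.12 and HTSeq, on the mm10 (GRCm38) build, per the submitters' processing notes; the annotation and the strand setting of the counting are not given in the sources used here. The deposited signal is a read count divided by 1 size factor per library by the authors. Multiplying back gave whole reads (within 0.01) for 100% of values, 10288191 to 13494079 per library. The part of counting error in the spread between samples was not estimated. It weighs most in low genes and in genes with a small SD. The authors' deposited table also gives their mean signal, ratio (fold), log2 ratio and p-value, of which only the p-values of members were printed.

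From the signal, log2(value + 1) was tested with limma 3.58.1 (R 4.3.3; trended variance, genotype only, two-sided) for genes with a mean of at least 10, with Benjamini-Hochberg adjustment over 13692 genes and a threshold of 0.05. On the recovered reads, edgeR 4.0.16 called 79 genes and DESeq2 1.42.0 called 214, beside 78 by limma. The 21 alternatives were pseudocounts of 0.5 and 5, no filter, a mean of at least 50, TMM and upper-quartile scaling, edgeR, DESeq2, the sample number as a block, each of 8 libraries left out, 3 pairs left out, and a skeletal muscle score as a covariate. Exon lengths and overlaps came from GENCODE vM21, and positions and promoters from RefSeq GRCm38.p6. Genes were named by a rule: those called, those with an unadjusted p under 0.05, the 2 smallest p of each role, the 5 highest per kilobase and the smallest p of each of the 4 lists of other matrix genes, with every remaining member given by its mean. Intervals (95%) are for single genes. Libraries were compared in pairs inside each group, and no pair agreed within counting error.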

Additional observations from a re-analysis of the deposited data

Results flagged for a closer look

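Crispld2, 1 of the other matrix genes, had a sample far from the rest of its group: mutant 3 stood at 194.9, while the other 3 mutants lay between 212.0 and 213.0. Such a gap is flagged by chance in about 1 in 20 groups, and 96 groups were examined, so about 4.8 flags would arise by chance.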

How the results depend on the processing

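Fn1 was lower in all 21 alternatives, while its call depended on which libraries were used. With either other pseudocount, filter or scaling, and by edgeR, Fn1 was the only member called. Counts of all called genes were 214 by DESeq2, 29 without controls 1 and 2, 2 without both libraries numbered 2, 146 without control 4 and mutant 2, and 18 to 185 with each library left out, beside 78. Members called lower numbered 2 by DESeq2, 0 without controls 1 and 2 or without both libraries numbered 2, 4 without control 4 and mutant 2, 2 with the muscle score as a covariate and 0 to 3 with a library left out, beside 1. Fn1 had an adjusted p of 0.166 without both libraries numbered 2 and 0.0675 without controls 1 and 2. Members called higher numbered 1 by DESeq2, 2 without controls 1 and 2 and 0 to 1 with a library left out, beside 0. Other matrix genes called lower numbered 1 by DESeq2, 1 without control 4 and mutant 2 and 0 to 1 with a library left out, and called higher 0 to 1 with a library left out, beside 0. The members' median was 0.11 without controls 1 and 2 and -0.09 to 0.02 with a library left out. The cause of these shifts was not tested.

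With the sample number as a replicate block, 232 genes were called, with 3 members lower (Fn1, Fbn2 at an adjusted p of 0.0197 and Nid1 at 0.0394), 1 other matrix gene lower and 1 higher. Deviations of same-numbered samples correlated at 0.325, 0.287, 0.294 and 0.064, the last not above 0.1. For samples 1 to 3 of both groups the same number was the best match. Control 4 correlated best with mutant 3 (0.154), and mutant 4 with control 3 (0.101). The numbers were therefore not taken to pair the samples in the main test, and whether samples 1 to 3 are pairs is not known.

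Of 41 members, 23 changed sign under at least 1 alternative and 18 under none. Signs turned without controls 1 and 2 for Tnxb (0.402), Eln (0.0529), Emilin2 (0.215), Mfap2 (0.0671), Mfap5 (0.296), Lox (0.565), Vcan (-0.065), Dcn (0.619), Bgn (0.157), Ogn (0.119), Aspn (0.88), Nid2 (0.112), Fras1 (-0.0637) and Egflam (0.0423). They turned without both libraries numbered 2 for Mfap2 (0.00765), Lox (0.118), Loxl3 (-0.0014), Dcn (0.0435) and Nid2 (0.053), and without control 4 and mutant 2 for Matn2 (-0.0484), Emilin1 (-0.0239), Loxl1 (-0.128), Fmod (-0.074), Omd (0.000423) and Hspg2 (0.0602). With the muscle covariate they turned for Mfap2 (0.0116), Lox (0.124), Dcn (0.0514) and Nid2 (0.00119), and for Matn2 by edgeR (-0.00245) and DESeq2 (-0.000461). With a library left out, the lowest and highest log2 fold changes of members that changed sign were -0.104 to 0.114 for Matn2, -0.0546 to 0.0523 for Emilin1, -0.0651 to 0.054 for Mfap2, -0.0787 to 0.0686 for Mfap4, -0.335 to 0.181 for Lox, -0.0782 to 0.116 for Loxl1, -0.492 to 0.134 for Dcn, -0.294 to 0.00206 for Bgn, -0.113 to 0.38 for Fmod, -1.38 to 0.0442 for Aspn, -0.0709 to 0.247 for Prelp, -0.0663 to 0.0246 for Nid2, -0.0654 to 0.0582 for Hspg2 and -0.106 to 0.00697 for Egflam. With all 8 libraries none of these members was called. Depth limits Tnxb, Matn4, Prelp, Omd and Fmod, the members with the fewest reads.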
